A study of Homo sapiens with 44 samples.

Results

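The 10 genes described here make, remove or read retinoic acid. They are the retinaldehyde dehydrogenases ALDH1A1, ALDH1A2 and ALDH1A3, the retinaldehyde reductase DHRS3, the retinoic acid hydroxylases CYP26A1, CYP26B1 and CYP26C1, and the retinoic acid receptors RARA, RARB and RARG. They were taken by name, not by their levels, and their symbols were matched to Ensembl identifiers through GENCODE release 29. All 10 were found among the 60499 gene identifiers of the count table, and all 10 passed the filter on low counts.

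RNA was measured in 44 culture wells along a differentiation of H1 cells, a long-used line of human embryonic stem cells, towards heart muscle. Pluripotent cells on the laminin LN-521 formed one group of 3 wells, and every other group grew on LN-521 together with LN-221. The groups with 3 wells were day 0 in Nutristem medium, days 1 and 3 with CHIR99021, which blocks the kinase GSK3 and so switches on Wnt signalling, and days 14, 20, 30 and 90 in RPMI medium with the CTS B-27 supplement. The groups with 5 wells were day 5 with IWP2, an inhibitor of Wnt production, days 7 and 9 with neither compound, and day 11 with CTS B-27. From day 1 to day 9 the base was RPMI medium with B27 lacking insulin. All groups came from 1 cell line without a genetic change, and no group at the later days was kept without CHIR99021 and IWP2, so the day, the compounds and the medium cannot be told apart. The labels number the wells as biological replicates without naming separate thaws or runs, so the p-values measure the spread between wells.

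Retinoic acid is made from vitamin A. Retinol is oxidised to retinaldehyde, and the ALDH1A enzymes oxidise retinaldehyde to retinoic acid in a step that is not reversed. DHRS3 turns retinaldehyde back into retinol, and the CYP26 enzymes hydroxylate retinoic acid for removal. The acid binds the receptors RARA, RARB and RARG, which sit on DNA together with RXR partners. In the embryo, ALDH1A2 in the mesoderm next to the heart field and CYP26 enzymes elsewhere set up zones with and without retinoic acid, which pattern the inflow end of the heart, and the epicardium, the outer layer of the heart, later expresses ALDH1A2. CYP26A1, DHRS3 and RARB are known to be switched on by retinoic acid itself.

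Total estimated counts per well ranged from 6937136 to 33498022. Levels are given in CPM, counts relative to the library total after scaling between libraries by the trimmed mean of M values (TMM), and levels of different genes are compared only in TPM, which also corrects for transcript length. The smallest level taken as measurable, 3 counts, was 0.0919 to 0.410 CPM depending on the well and covers counting error only. Marker genes followed the labelled days. The summed level of 4 pluripotency genes fell from 4724 to 4976 CPM in the pluripotent wells to 8.83 to 14.9 CPM at day 90, and 5 cardiomyocyte genes summed to at least 5053 CPM in every well from day 7 on, against at most 59.6 CPM up to day 3. Markers of other cells were present too. The summed level of 7 hepatic endoderm genes reached 9637 CPM in a day 11 well, and 7 epicardial genes reached 247.5 CPM in a day 20 well. These were bulk samples, so fewer cells of a type and less RNA per cell cannot be told apart.

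Each group was compared with the one before it, day 9 with day 0, and day 90 with day 9, in 13 comparisons that share groups with each other. A gene was called changed on 2 criteria together, an adjusted p under 0.05 from edgeR's quasi-likelihood test and a log2 fold change of 1 or more in size. Of the 17 changes among the 10 genes over the 11 consecutive steps, 14 (82.4%) fell in the 4 steps up to day 5 and 3 in the 7 later steps. Over all genes, 10181 of the 13489 changes (75.5%) fell in the same 4 steps, so the timing of the set was close to that of genes in general. No gene of the set changed from pluripotent cells to day 0, where 2.91% of the 22955 genes tested did. From day 0 to day 1, 3 of the 10 fell, beside 9.66% of all genes falling and 13.5% changing either way. From day 1 to day 3, 6 rose, beside 11% of all genes rising and 17.8% changing. From day 3 to day 5, 2 rose and 3 fell, beside 5.75% of all genes rising, 4.34% falling and 10.1% changing. From day 5 to day 7, 1 rose, beside 2.74% rising and 3.65% changing. None changed in the steps to days 9, 11, 14 and 20, where 1.28%, 1.63%, 0.697% and 0.0479% of all genes did. At day 30, 1 was lower than at day 20, beside 1.26% of all genes lower and 2.02% changed. At day 90, 1 was higher than at day 30, beside 2.65% higher and 5.09% changed. Over the longer spans, 3 rose and 3 fell from day 0 to day 9, beside 17.1% of all genes rising, 14.6% falling and 31.7% changing. From day 9 to day 90, 3 rose and 1 fell, beside 11.9% rising, 12% falling and 23.9% changing. CYP26C1 and RARA did not pass both criteria in any of the consecutive steps.

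**Figure D1:**
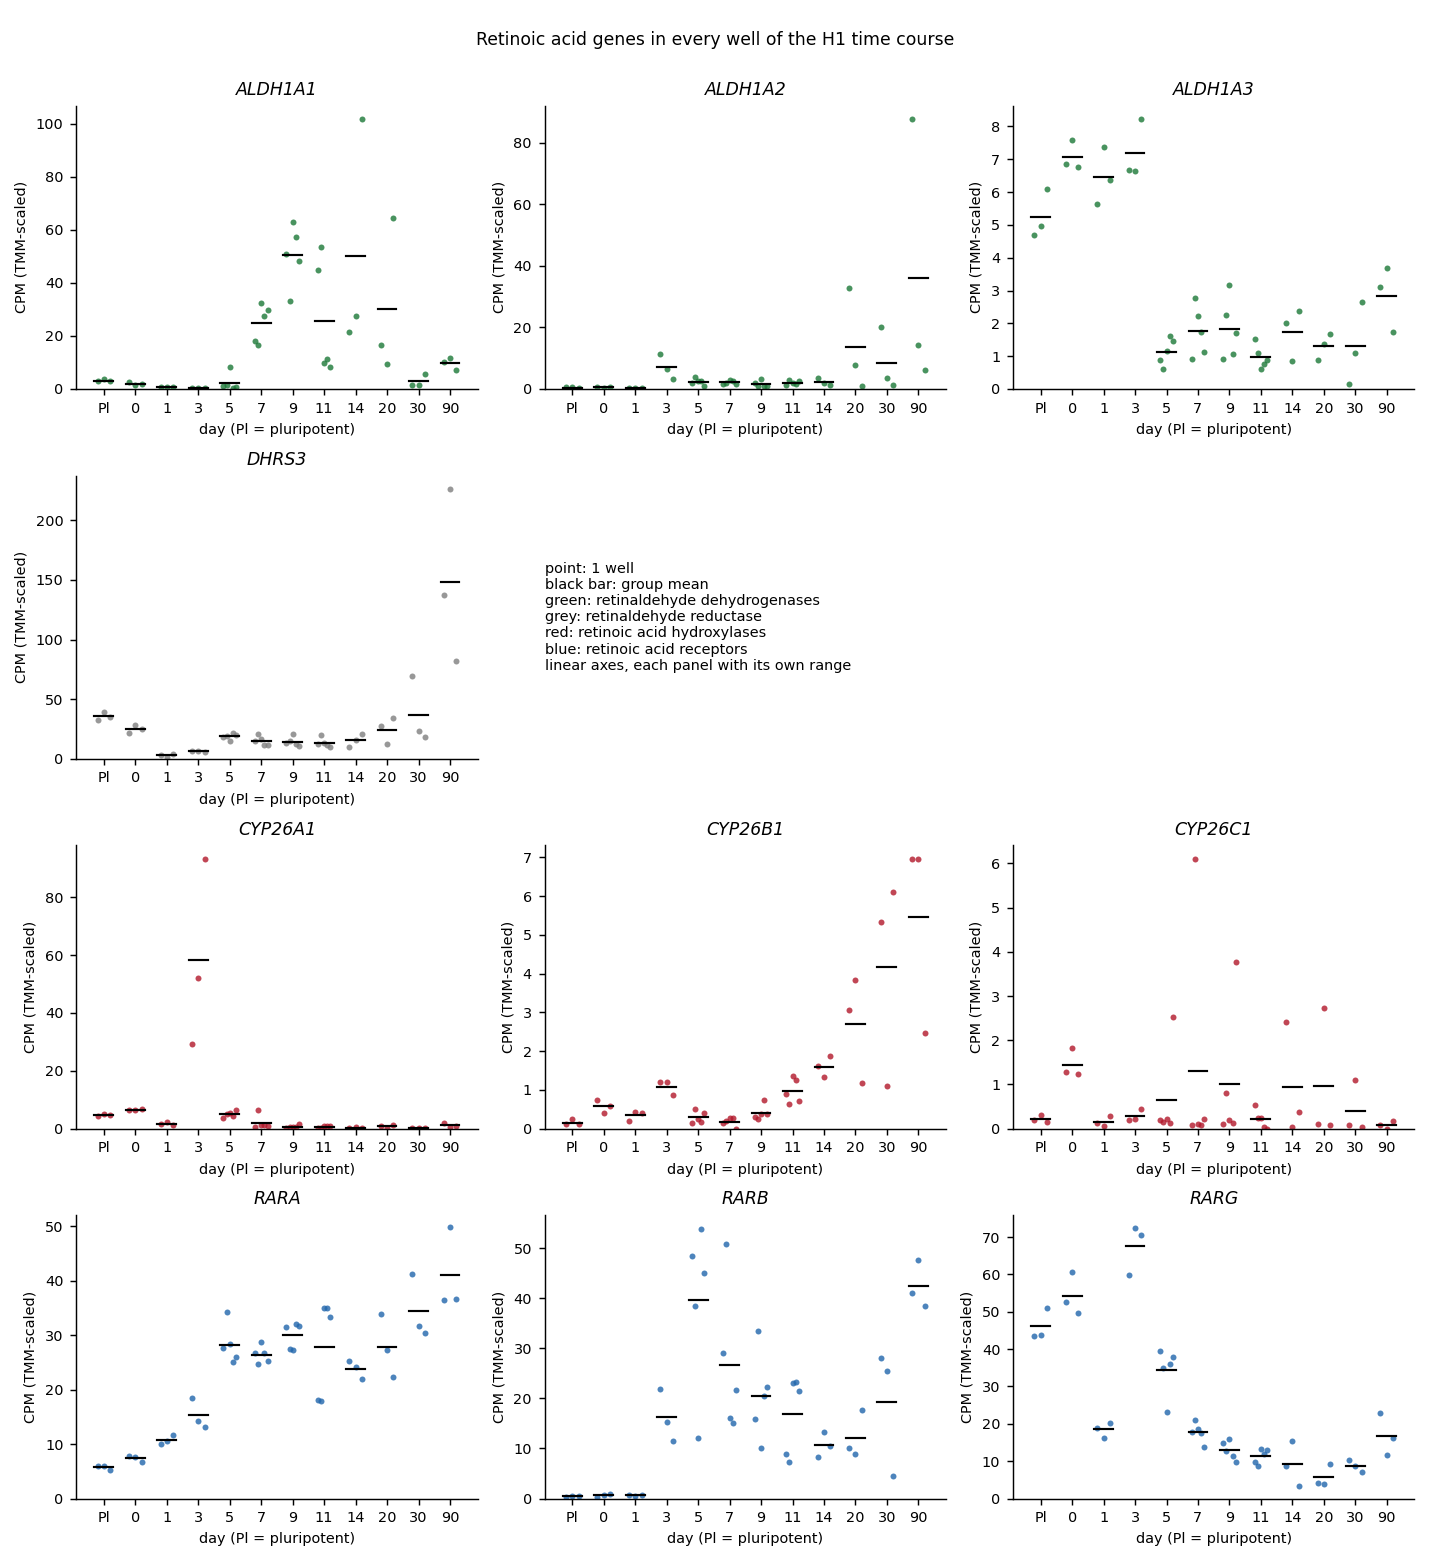
Level of each of the 10 genes (CPM, linear axis with its own range per panel) in every well, by day; points are wells and black bars are group means. CYP26A1 stands out at day 3 alone, RARG is highest up to day 3 apart from a dip at day 1, ALDH1A1 is high from day 7 to day 20, and ALDH1A2 and DHRS3 reach their highest wells at day 90.

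The retinaldehyde dehydrogenases followed each other in time. By mean share of their summed TPM, ALDH1A3 led up to day 1, ALDH1A2 at days 3 and 5, ALDH1A1 from day 7 to day 20 and ALDH1A2 again at days 30 and 90. ALDH1A3 (ENSG00000184254, chr15:100877714-100916626, plus strand) stood at 4.70, 4.96 and 6.09 CPM in the pluripotent wells, at 6.85, 7.59 and 6.77 at day 0, at 5.63, 7.36 and 6.35 at day 1 and at 6.67, 6.63 and 8.23 at day 3. At day 5 its wells read 0.890, 0.599, 1.16, 1.61 and 1.45 CPM, all below every earlier well. This fall was 6.27-fold (log2 fold change -2.65, SE 0.44, adjusted p = 3e-05). The gene stayed low afterwards, with group means between 0.977 ± 0.359 CPM at day 11 (SD, n = 5) and 2.84 ± 1.00 CPM at day 90 (SD, n = 3).

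ALDH1A2 (ENSG00000128918, chr15:57953424-58497866, minus strand), the main enzyme of the early embryo, was near the floor before day 3. Its wells read 0.472, 0.257 and 0.374 CPM at day 1 and 11.3, 6.52 and 3.25 CPM at day 3. The day 3 wells lay above every earlier well but were uneven, with well 1 highest and well 3 lowest. The rise was 18.9-fold (log2 fold change 4.24, SE 0.95, adjusted p = 0.00067). From day 5 to day 14 the wells held between 1.02 and 3.99 CPM, and the difference of day 5 from day 3 did not pass the test (log2 fold change -1.54, SE 0.70, adjusted p = 0.13).

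The gene spans LIPC, a lipase gene on the other strand with group means of 2.13 to 2.59 CPM from day 9 to day 20, so the ALDH1A2 means of 1.65 to 2.21 CPM at days 9 to 14 are uncertain. LIPC was at 0.194 CPM at day 90.

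Late in the course ALDH1A2 varied more between wells than between days. At day 20 wells 1, 2 and 3 read 32.7, 7.80 and 0.840 CPM, at day 30 wells 1, 10 and 3 read 20.2, 3.59 and 1.30 CPM, and at day 90 wells 2, 4 and 5 read 87.6, 14.1 and 6.05 CPM. The day 90 wells all lay above the day 9 wells, which read 1.02 to 3.16 CPM, and the gene was 21.7-fold higher at day 90 than at day 9 (log2 fold change 4.44, SE 0.73, adjusted p = 5.8e-06). Without day 90 well 2 the log2 fold change was 2.60 (adjusted p = 0.0033). The day 20 and day 90 steps did not pass the test (adjusted p = 0.49 and 0.10), and both turned on single wells. The step to day 20 had a log2 fold change of 2.69, which was 3.25 without day 20 well 3 (adjusted p = 0.037) and 0.89 without day 20 well 1 (adjusted p = 1). The step to day 90 had 2.09, which was 3.91 without day 30 well 1 (adjusted p = 0.0094) and 0.25 without day 90 well 2 (adjusted p = 0.89).

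The epicardial markers moved with these wells. The well with the most ALDH1A2 in its group also had the highest sum of the 7 epicardial genes at each of these days: 247.5 CPM in day 20 well 1, 141.0 in day 30 well 1 and 223 in day 90 well 2, against 44.9 to 129.5, 49.4 to 50.7 and 102 to 109 CPM in the other wells. The single genes of that list did not all follow. In day 90 wells 2, 4 and 5, UPK3B, a mesothelial surface gene, read 21.2, 4.87 and 3.03 CPM and BNC1 65.0, 19.9 and 4.71 CPM. WT1 read 35.3, 10.6 and 28.6 CPM there, and TBX18, at 30.1, 67.4 and 21.0 CPM, was highest in well 4. Markers of other cells moved with ALDH1A2 at 2 of these days. The 4 fibroblast genes summed to 1426 CPM in day 20 well 1 against 911 and 440, and to 2074 CPM in day 90 well 2 against 367 and 1195. Endothelial genes summed to 57.1 against 20.7 and 7.81 CPM and to 40.6 against 6.54 and 15.9 CPM in the same wells. At day 30 both sums were highest in well 3, the well with the least ALDH1A2. All 7 markers had counts in every well from day 3 on. At day 3 the epicardial sum was only 11.8 to 22.6 CPM although ALDH1A2 had already risen. The part of these cells in the ALDH1A2 level was not tested.

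ALDH1A1 (ENSG00000165092, chr9:72900662-73080442, minus strand) rose after ALDH1A2. Its group means were 50.5 ± 11.2 CPM at day 9 (SD, n = 5) and 50.2 ± 44.7 CPM at day 14 (SD, n = 3), and did not differ beyond their spread. It was lowest at day 3, at 0.238, 0.335 and 0.189 CPM. At day 5 wells 1 to 5 read 1.24, 1.52, 8.35, 0.391 and 0.669 CPM, all above day 3, with well 3 far above the rest. The rise from day 3 to day 5 was 9.33-fold (log2 fold change 3.22, SE 0.94, adjusted p = 0.014) and did not pass without day 5 well 3 (1.89, adjusted p = 0.15), without day 3 well 1 (3.18, adjusted p = 0.057) or without day 3 well 3 (3.05, adjusted p = 0.071).

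By day 7 every well was higher than every day 5 well. The day 7 wells 1, 10, 2, 3 and 4 read 18.1, 16.7, 32.3, 27.5 and 29.7 CPM, and at day 9 the same numbers read 50.8, 33.3, 62.8, 57.3 and 48.2 CPM. The rise from day 5 to day 7 was 10.3-fold (log2 fold change 3.36, SE 0.62, adjusted p = 0.00025), and without day 5 well 3 its log2 fold change was 4.69 (adjusted p = 1.6e-06). Compared with day 0, where wells read 1.43 to 2.48 CPM, day 9 was 26.0-fold higher (log2 fold change 4.70, SE 0.81, adjusted p = 8.6e-06).

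After day 9 the ALDH1A1 level split between wells. Day 11 wells 1 and 2 read 44.8 and 53.6 CPM and wells 5, 6 and 7 read 9.98, 11.4 and 8.39 CPM. The same wells differed in hepatic endoderm markers, which summed to 5302 and 9637 CPM in wells 1 and 2 and to 332, 341 and 274 CPM in wells 5, 6 and 7, and in cardiomyocyte markers, at 7690 and 5053 CPM against 18554 to 19581 CPM. Fibroblast markers summed to 864 and 1636 CPM in wells 1 and 2 against 354 to 418 CPM. The RNA integrity score was 8.6 and 8.0 in wells 1 and 2 and 9.5, 9.2 and 9.4 in wells 5, 6 and 7. The part of RNA quality in this split was not tested. Neither step passed with all wells, from day 9 to day 11 (log2 fold change -0.98, adjusted p = 0.37) or from day 11 to day 14 (0.97, adjusted p = 0.41). Without day 11 wells 1 and 2, an alternative chosen after seeing the data, the values were -2.35 (adjusted p = 0.018) and 2.34 (adjusted p = 0.014). Without day 14 well 6 the later step was -0.062 (adjusted p = 0.98). Day 14 wells 2, 3 and 6 read 21.4, 27.5 and 101.7 CPM of ALDH1A1, and day 20 wells 1, 2 and 3 read 16.5, 9.44 and 64.5 CPM. Day 20 well 3 also had the highest hepatic sum of its group, 5269 CPM against 1152 and 2095, whereas day 14 well 6 had the lowest of its group, 3558 CPM against 4474 and 4526.

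At day 30 ALDH1A1 had fallen to 1.55, 1.33 and 5.70 CPM, below every day 20 well. The fall was 10.5-fold (log2 fold change -3.39, SE 0.80, adjusted p = 0.011). It did not pass without day 20 well 3 (-2.18, adjusted p = 0.097), day 30 well 1 (-3.07, adjusted p = 0.073) or day 30 well 10 (-3.08, adjusted p = 0.050), and without day 30 well 3 it was -4.39 (adjusted p = 0.0066). The hepatic sum was 24.7 to 384 CPM at day 30 and 1152 to 5269 CPM at day 20. Compared with day 9, day 90 was 5.20-fold lower (log2 fold change -2.38, SE 0.70, adjusted p = 0.0066), with wells at 10.2, 11.6 and 7.34 CPM. Of the hepatic endoderm list, HNF4A read 0.762, 6.82 and 0.560 CPM in day 90 wells 2, 4 and 5 and FOXA2 0.0896, 0.835 and 0.0560 CPM. The hepatic sum was 10.1, 220 and 9.97 CPM. ALDH1A1 had the same order over these wells, although wells 2 and 5 were nearly equal in the hepatic sum. From day 30 to day 90 the 2 levels went opposite ways. The ALDH1A1 mean went from 2.86 to 9.71 CPM without overlap of the wells, a step that did not pass (log2 fold change 1.74, adjusted p = 0.16). The median hepatic sum went from 66.9 to 10.1 CPM. The part of hepatic cells in the ALDH1A1 level was not tested.

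**Figure D2:**
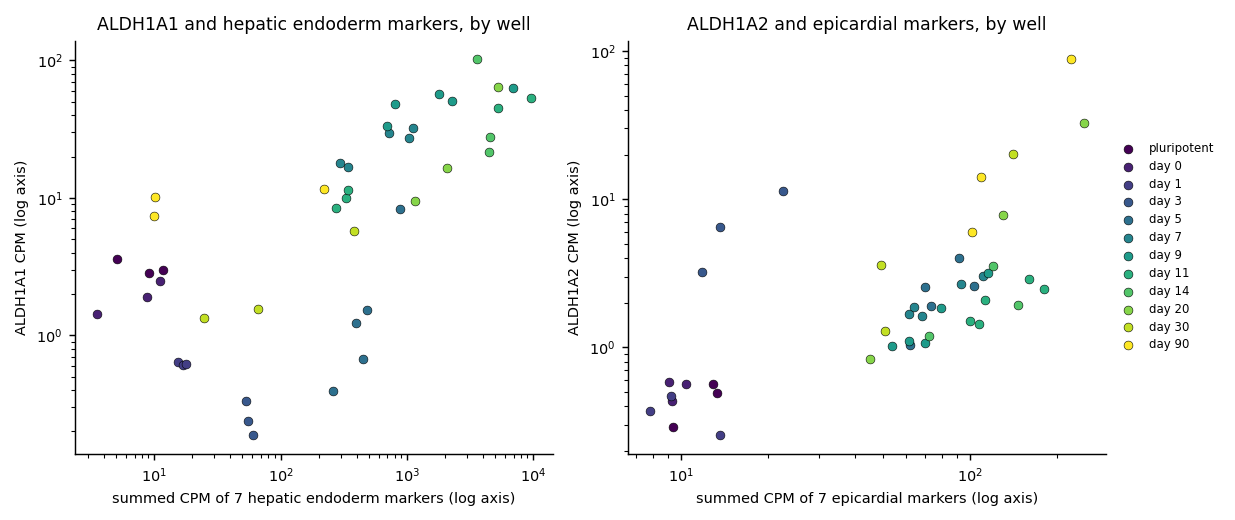
Left: ALDH1A1 (CPM, log axis) against the summed CPM of 7 hepatic endoderm markers (log axis) in each of the 44 wells; right: ALDH1A2 against the summed CPM of 7 epicardial markers; colours give the day. Day 11 wells fall apart on the left into a pair at 44.8 and 53.6 CPM and 3 wells near 10 CPM, the 3 day 3 wells on the right hold 3.25 to 11.3 CPM of ALDH1A2 at a low epicardial sum, and 1 day 90 well is highest at 87.6 CPM.

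In the make-up of the family by TPM, ALDH1A3 held 82.6% ± 5.88 of the summed ALDH1A transcripts at day 1 (SD, n = 3), ALDH1A2 held 58.8% ± 14.0 at day 3 (SD, n = 3) and ALDH1A1 held 92.6% ± 2.04 at day 9 (SD, n = 5). By day 90 the largest mean share was ALDH1A2 with 53.8% ± 26.6 (SD, n = 3), and its wells ranged from 35.7% to 84.4%. The summed ALDH1A level was 2.34 ± 0.406 TPM at day 1, 4.81 ± 1.17 TPM at day 3 and 13.3 ± 6.46 TPM at day 9. As TPM compares wells less well than genes within a well, the sums do not measure the change between days.

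DHRS3 (ENSG00000162496, chr1:12567910-12617731, minus strand), which returns retinaldehyde to retinol, fell from day 0 to day 1, the group in CHIR99021, and was highest in the oldest wells. It stood at 22.0, 28.1 and 24.6 CPM at day 0 and at 3.30, 1.54 and 3.86 CPM at day 1. No day 1 well came near the day 0 wells, and the fall was 8.56-fold (log2 fold change -3.10, SE 0.41, adjusted p = 5.1e-07). It rose to 6.24, 6.55 and 6.11 CPM at day 3 (log2 fold change 1.12, SE 0.40, adjusted p = 0.032), a change that passed in only 1 of the 6 fits with a well left out. The wells that ended it were day 1 wells 1 and 2 (adjusted p = 0.053 and 0.18) and day 3 wells 1, 2 and 3 (adjusted p = 0.058, 0.073 and 0.060).

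At day 5 DHRS3 read 18.1, 19.2, 15.1, 21.4 and 20.2 CPM, all above day 3 (log2 fold change 1.58, SE 0.36, adjusted p = 0.0017). Between day 5 and day 14 its group means stayed between 13.4 ± 3.86 CPM at day 11 (SD, n = 5) and 18.8 ± 2.42 CPM at day 5 (SD, n = 5), and no step in between passed the test. The difference of day 9 from day 0 was under the fold criterion (log2 fold change -0.78, adjusted p = 0.048).

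At day 90 wells 2, 4 and 5 held 137, 226 and 81.8 CPM of DHRS3, against 69.7, 23.3 and 17.9 CPM in day 30 wells 1, 10 and 3. The groups did not overlap. The rise from day 30 was 4.00-fold (log2 fold change 2.00, SE 0.39, adjusted p = 0.0008), with a log2 fold change of 2.85 without day 30 well 1 (adjusted p = 2.6e-05). It did not pass when only these groups were fitted (adjusted p = 0.37). Compared with day 9 the rise was 10.3-fold (log2 fold change 3.36, SE 0.34, adjusted p = 2.9e-10).

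CYP26A1 (ENSG00000095596, chr10:93073475-93077890, plus strand), the hydroxylase most responsive to retinoic acid, peaked in the day 3 group. Its wells read 6.61, 6.29 and 6.70 CPM at day 0 and 1.75, 2.22 and 1.40 CPM at day 1. The day 1 wells were all lower (3.64-fold, log2 fold change -1.87, SE 0.65, adjusted p = 0.034), but the fall did not pass in any of the 6 fits with a well left out (adjusted p = 0.060 to 0.12). At day 3 wells 1, 2 and 3 read 29.2, 52.2 and 93.2 CPM, and the rise from day 1 was 32.4-fold (log2 fold change 5.02, SE 0.73, adjusted p = 1.2e-06).

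The day 3 wells differed among themselves, and the order of CYP26A1 was the reverse of that of ALDH1A2 and RARB. Wells 1, 2 and 3 held 29.2, 52.2 and 93.2 CPM of CYP26A1 beside 11.3, 6.52 and 3.25 CPM of ALDH1A2 and 21.8, 15.3 and 11.5 CPM of RARB. HOXB1, a hindbrain and mesoderm gene with a known retinoic acid response, read 40.0, 20.0 and 13.2 CPM in the same wells, and the 4 primitive streak genes summed to 123, 187 and 232 CPM. With 3 wells this is an order only, and the part of the streak cells in it was not tested.

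By day 5 CYP26A1 had fallen to 3.56, 4.95, 5.48, 4.48 and 6.43 CPM (11.7-fold, log2 fold change -3.55, SE 0.55, adjusted p = 9.2e-06). At day 7 wells 1, 10, 2, 3 and 4 read 0.557, 6.47, 1.36, 1.30 and 0.940 CPM, so that 4 wells lay below the day 5 wells and well 10 lay just above them. The step from day 5 to day 7 did not pass (log2 fold change -1.23, SE 0.50, adjusted p = 0.17) but did without day 7 well 10 (-2.25, adjusted p = 0.0020). The step from day 7 to day 9 did not pass either (-1.66, adjusted p = 0.11). It was -2.38 without day 9 well 4 (adjusted p = 0.024) and -0.64 without day 7 well 10 (adjusted p = 0.71). Day 9 was 9.74-fold below day 0 (log2 fold change -3.28, SE 0.59, adjusted p = 1.4e-05), and the log2 fold change was -4.00 without day 9 well 4 (adjusted p = 2.2e-06). From day 9 on no well exceeded 2.02 CPM.

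CYP26B1 (ENSG00000003137, chr2:72129238-72148038, minus strand) was low early and had its highest mean CPM at day 90. Its wells read 0.202, 0.418 and 0.405 CPM at day 1, 1.19, 1.19 and 0.868 CPM at day 3 and 0.155, 0.519, 0.257, 0.174 and 0.409 CPM at day 5. The day 3 wells lay above both neighbours. The rise had a log2 fold change of 1.65 (SE 0.59, adjusted p = 0.032) and the fall -1.82 (SE 0.52, adjusted p = 0.011). These values rest on 4 to 32 counts per well, and the rise did not pass without day 1 well 1, 2 or 3 (adjusted p = 0.14, 0.052 and 0.060) or day 3 well 1 or 2 (0.072 and 0.078). Under limma on log2(TPM + 1) and log2(TPM + 0.1), neither change passed. The adjusted p was 0.60 and 0.32 for the rise and 0.46 and 0.21 for the fall.

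From day 7 the group mean of CYP26B1 in CPM was higher at each sampled day than at the day before it, without a consecutive step passing the test. It was 0.185 ± 0.116 CPM at day 7 and 0.414 ± 0.194 at day 9 (SD, n = 5 each), and 2.69 ± 1.37 at day 20, 4.18 ± 2.70 at day 30 and 5.46 ± 2.59 at day 90 (SD, n = 3 each). Day 90 wells 2, 4 and 5 read 6.95, 6.96 and 2.47 CPM against 0.257 to 0.747 CPM at day 9. The groups did not overlap (log2 fold change 3.71, SE 0.50, adjusted p = 1.7e-07). Under limma on log2(TPM + 1) the log2 fold change was 0.41 (adjusted p = 0.033), short of the fold criterion. In TPM the mean was higher at day 30 (0.770 ± 0.773) than at day 90 (0.457 ± 0.229).

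CYP26C1 (ENSG00000187553, chr10:93060808-93069536, plus strand), a neighbour of CYP26A1 on chromosome 10, was low in every group. Its highest group mean was 1.45 CPM at day 0, and at later days it stood out in single wells. Day 0 read 1.28, 1.83 and 1.24 CPM, above the pluripotent wells at 0.201, 0.306 and 0.146 CPM, yet the difference did not pass (log2 fold change 2.69, SE 1.54, adjusted p = 0.33). Later it reached 2.53 CPM in day 5 well 5, 6.10 in day 7 well 10, 3.77 in day 9 well 4, 2.41 in day 14 well 2 and 2.74 in day 20 well 2. The other wells of those days read 0.0359 to 0.813 CPM. An unnamed processed transcript, AL358613.3, overlaps CYP26A1 and CYP26C1 on the same strand and is not analysed here.

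The wells with CYP26C1 at days 5, 7 and 9 also stood out in SOX2, a gene of pluripotent and neural cells. Day 7 well 10 read 14.5 CPM of SOX2 against 0.592 to 1.03 CPM in the other day 7 wells, and it had the highest CYP26A1 of its group as well. Day 5 well 5 read 5.39 CPM against 1.48 to 3.68 CPM, and day 9 well 4 read 2.34 CPM against 0.741 to 1.75 CPM. The sum of the 4 pluripotency genes, which include SOX2, did not always follow. It was highest of its group in day 7 well 10 (169.8 CPM against 117.6 to 132.1). It was lowest in day 9 well 4 (62.9 CPM against 67.4 to 85.8). In day 5 well 5 it was 202.3 CPM against 187.5 to 229.3 in the other wells. PAX6, a neural gene, was highest of its group in day 7 well 10 (0.410 CPM), day 9 well 4 (1.33 CPM), day 14 well 2 (4.42 CPM) and day 20 well 2 (6.16 CPM), but not in day 5 well 5 (0.298 CPM against 0.0774 to 0.652). SOX1, which marks early neural cells, was at 0 in all 5 day 7 wells and in day 9 well 4. It read 0.603 CPM in day 14 well 2 against 0 and 0.499, and 2.05 CPM in day 20 well 2 against 0.230 and 0. At day 30, well 10 was highest in both CYP26C1 (1.09 CPM against 0.0814 and 0.0463) and SOX1 (1.09 CPM against 0 in the other wells). The neural list of SOX1, PAX6 and NES did not always follow. Its sum was highest of its group in day 5 well 5 (305.4 CPM, next 304.5), day 7 well 10 (676.9) and day 9 well 4 (1056). It was lowest in day 14 well 2 (338.8 CPM against 452.7 and 812.0). In day 20 well 2 (685.6 CPM) and day 30 well 10 (408.0 CPM) the neural sum lay between those of the other wells. The RNA integrity score was lowest of its group in day 14 well 2 (7.4), day 20 well 2 (8.0) and day 30 well 10 (7.4), and was 10 in day 9 well 4. The part of neural cells and of RNA quality in the CYP26C1 level was not tested.

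Promoters of all 10 genes were searched for paired half-sites of the kind that retinoic acid receptors bind. For CYP26A1 and RARB, both known to be switched on by retinoic acid, the promoter that held such a pair is printed. RefSeq promoters (GRCh38.p14, 250 bases before to 50 after a start) were found for all 10 genes, several with more than 1 start. They were searched on both strands for direct repeats of any of 4 half-sites (AGGTCA or AGTTCA or GGGTCA or GGTTCA), spaced by 1, 2 or 5 bases (DR1, DR2 and DR5). Only these 2 of the 10 genes held a repeat, in each case a DR5, shown in capitals. In CYP26A1, at chr10:93073643-93073942 on the plus strand, it runs from -90 to -74 before the start and reads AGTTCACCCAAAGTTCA on the other strand. In RARB, at chr3:25428013-25428312 on the plus strand, it runs from -53 to -37 and reads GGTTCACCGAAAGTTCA on the strand of the gene.
CYP26A1: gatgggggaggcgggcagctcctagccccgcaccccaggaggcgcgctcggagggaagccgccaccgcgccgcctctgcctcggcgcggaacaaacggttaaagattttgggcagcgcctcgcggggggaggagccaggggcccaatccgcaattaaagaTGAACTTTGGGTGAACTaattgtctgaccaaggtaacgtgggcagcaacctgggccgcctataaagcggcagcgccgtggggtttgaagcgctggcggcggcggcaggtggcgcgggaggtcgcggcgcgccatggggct
RARB: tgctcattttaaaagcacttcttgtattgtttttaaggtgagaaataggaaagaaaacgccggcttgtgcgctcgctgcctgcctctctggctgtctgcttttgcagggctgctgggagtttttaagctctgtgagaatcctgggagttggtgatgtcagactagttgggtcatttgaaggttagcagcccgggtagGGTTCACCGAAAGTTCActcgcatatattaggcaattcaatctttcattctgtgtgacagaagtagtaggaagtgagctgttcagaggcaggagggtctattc

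A DR5 of these letters was present in 31 of the 35097 RefSeq promoters searched (0.0883%), and a DR1, DR2 or DR5 in 91 (0.259%). The other pathway genes listed further on held 0. The promoters with a DR5 belong to 29 gene symbols. Of the 27 besides CYP26A1 and RARB, 10 were tested. From day 1 to day 3, 1 of these, CFLAR, an inhibitor of cell death, rose (log2 fold change 1.11) and 0 fell, beside 11% of all genes rising. The median log2 fold change of the 10 was 0.18, against 0.07 over all genes. The other promoters found for CYP26A1 and RARB held no such repeat, and the levels here are per gene and not per start. The match describes letters in a window and not a bound site. As CYP26A1 and RARB are known responders, finding a repeat in them is not a test of a response in these wells.

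RARB (ENSG00000077092, chr3:25174332-25597932, plus strand) was close to absent until day 1 and was present in every well from day 3. Its wells read 0.775, 0.514 and 0.747 CPM at day 1 and 21.8, 15.3 and 11.5 CPM at day 3. The rise was 23.7-fold (log2 fold change 4.57, SE 0.62, adjusted p = 3.4e-07). At day 5 wells 1 to 5 read 48.5, 38.5, 12.1, 53.9 and 45.0 CPM, so that well 3 alone overlapped the day 3 range. The step did not pass the test (log2 fold change 1.29, SE 0.47, adjusted p = 0.051) and did without day 5 well 3 (1.52, adjusted p = 0.018) and under 5 of the 9 other settings (adjusted p = 0.023 to 0.045). That well also had the lowest RARG of its group, 23.0 CPM against 35.0 to 39.5 CPM, and the highest hepatic endoderm sum, 885 CPM against 259 to 481 CPM.

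From day 7 RARB was uneven between wells, and its day 90 wells lay within the range of day 5. Day 7 read 15.2 to 50.8 CPM with well 10 highest, and day 9 read 10.0 to 33.4 CPM. Day 11 wells 1 and 2 read 8.92 and 7.38 CPM against 23.0, 23.3 and 21.5 CPM in wells 5, 6 and 7, the opposite order to ALDH1A1. Day 90 wells read 41.1, 47.5 and 38.4 CPM, above all day 9 wells, with an adjusted p of 0.054 (log2 fold change 1.05, SE 0.44). It passed under 6 of the 9 other settings (adjusted p = 0.021 to 0.048) and not under the lane as a factor or limma on TPM (adjusted p = 0.094 to 0.41). Without day 9 well 10 it was 1.30 (adjusted p = 0.023). Compared with day 0, where wells read 0.403 to 0.863 CPM, day 9 was 32.1-fold higher (log2 fold change 5.00, SE 0.61, adjusted p = 1.4e-08). RARB overlaps TOP2B, a topoisomerase gene on the other strand, whose group means were 215 to 422 CPM in all groups, including those in which RARB was under 1 CPM.

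RARG (ENSG00000172819, chr12:53210567-53232980, minus strand) was the receptor of the early cells. It stood at 43.6, 43.9 and 51.0 CPM in the pluripotent wells and at 52.6, 60.8 and 49.8 CPM at day 0. It dipped to 18.9, 16.3 and 20.3 CPM at day 1 and returned to 59.8, 72.4 and 70.6 CPM at day 3. Neither neighbour overlapped the day 1 wells. The fall was 2.94-fold (log2 fold change -1.55, SE 0.31, adjusted p = 0.00027) and the return 3.65-fold (log2 fold change 1.87, SE 0.31, adjusted p = 1.3e-05).

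After day 3 RARG was lower at days 5 and 7, in steps just under the fold criterion. The log2 fold change was -0.98 at day 5 (adjusted p = 0.0075) and -0.95 at day 7 (adjusted p = 0.0087). Leaving out day 3 well 1, day 5 well 1 or day 5 well 5 took the former past the criterion (-1.06, -1.03 and -1.02), and leaving out day 5 well 3 or day 7 well 10 the latter (-1.06 and -1.01). At day 9 wells 1, 10, 2, 3 and 4 read 15.0, 12.8, 16.0, 11.5 and 9.73 CPM, 4.18-fold below day 0 (log2 fold change -2.06, SE 0.27, adjusted p = 4.2e-08). The lowest group mean was 5.79 ± 3.05 CPM at day 20 (SD, n = 3).

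RARA (ENSG00000131759, chr17:40309192-40357643, plus strand) increased by small steps. Wells read 6.03, 6.03 and 5.21 CPM when pluripotent, 7.75, 7.69 and 6.70 at day 0, 9.97, 10.6 and 11.7 at day 1 and 18.6, 14.2 and 13.1 at day 3. At day 5 they read 27.7, 34.3, 28.3, 25.2 and 25.9 CPM. The groups of days 0, 1, 3 and 5 did not overlap each other, but no step reached the fold criterion, the largest being that to day 5 (log2 fold change 0.89, SE 0.19, adjusted p = 0.00057). It reached 1.05 without day 3 well 1 (adjusted p = 0.00064).

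Over the longer span RARA was 4.07-fold higher at day 9 than at day 0 (log2 fold change 2.02, SE 0.20, adjusted p = 7.8e-11), with day 9 wells at 27.4 to 32.0 CPM. Day 11 again split, with 18.1 and 18.0 CPM in wells 1 and 2 and 35.0, 35.0 and 33.4 CPM in wells 5, 6 and 7. The highest group mean was at day 90, 41.0 ± 7.62 CPM (SD, n = 3). The antisense gene RARA-AS1 overlaps RARA and had group means of at most 2.53 CPM.

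**Figure D3:**
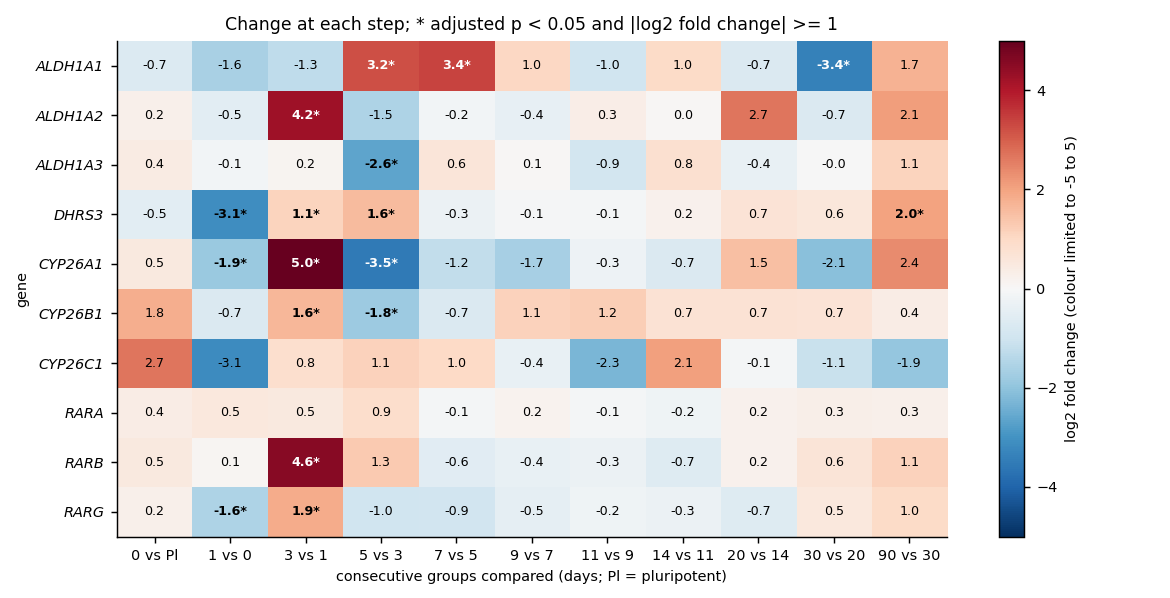
log2 fold change of each gene at each of the 11 consecutive steps (colour, limited to -5 to 5, with the value printed); an asterisk marks an adjusted p under 0.05 together with a change of at least 1. Of the 17 asterisks, 14 stand in the 4 steps up to day 5.

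The receptor make-up by TPM turned over between day 3 and day 9. RARG held 86.8% ± 0.833 of the summed receptor transcripts at day 0, 68.7% ± 7.59 at day 3 (SD, n = 3 each) and 22.5% ± 5.18 at day 9 (SD, n = 5). RARA held 12.1% ± 1.34, 17.6% ± 2.85 and 49.9% ± 4.39 at the same days. The wells of day 0 and day 9 did not overlap in either share. RARB held 1.08% ± 0.713 at day 0, 33.1% ± 9.24 at day 5 (SD, n = 5) and 38.4% ± 2.81 at day 90 (SD, n = 3). The summed receptor level was 30.3 ± 1.09 TPM at day 3 (SD, n = 3) and 13.4 ± 6.47 TPM at day 9 (SD, n = 5). TPM compares genes within a well better than wells, so these sums do not measure the change between the days.

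**Figure D4:**
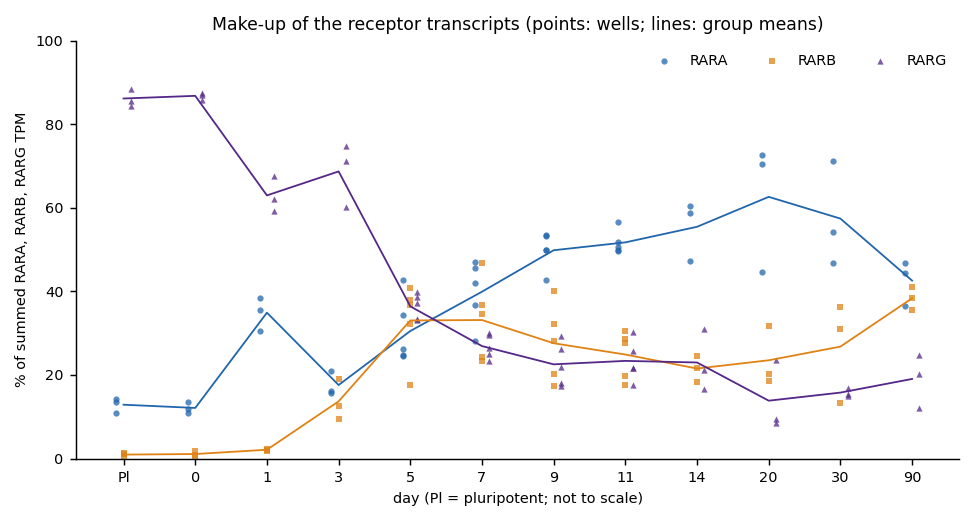
Share of RARA, RARB and RARG in their summed TPM (%, linear axis) in each well by day (day axis not to scale); points are wells and lines join group means. RARG holds 84.5% to 88.5% in the pluripotent wells, the 3 receptors lie close together at day 5, and RARA has the highest mean share from day 7 on.

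Summed synthesis and breakdown transcripts were set against each other as the ratio of ALDH1A to CYP26 TPM in each well. The ratio was 1.02 to 1.39 in pluripotent wells, 0.766 to 0.866 at day 0 and 1.41 to 2.66 at day 1. At day 3 it was lowest, 0.0882 to 0.442, and no other day had a well in that range except day 5, which ran from 0.256 to 1.48. At day 9 it was highest, with a median of 40.3 and wells from 11.0 to 163. At day 90 it was 3.89 to 13.1. The ratio counts transcripts and not enzyme activity, and from day 7 on its denominator rests on few counts.

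**Figure D5:**
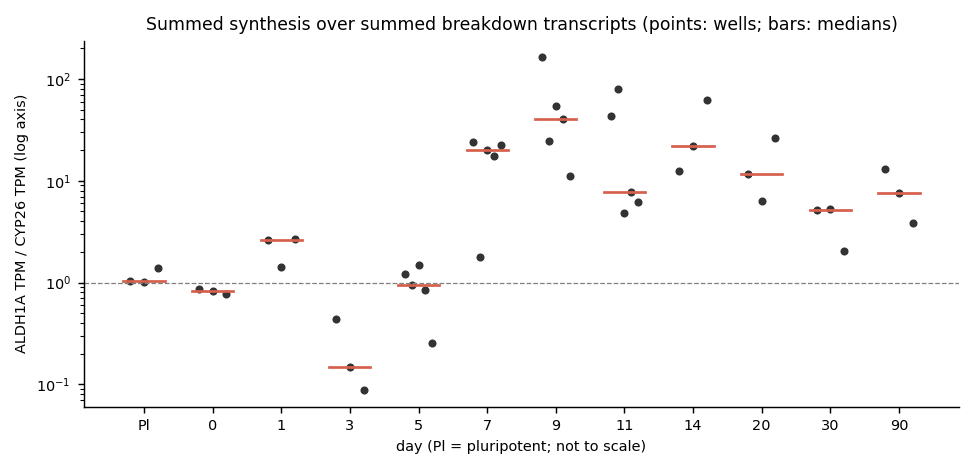
Ratio of summed ALDH1A to summed CYP26 TPM (log axis) in each well by day (day axis not to scale); points are wells, bars are medians and the dashed line marks equal sums. All 3 day 3 wells lie under the line at 0.0882 to 0.442, and every well from day 7 on lies above it.

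Among themselves, RARA and RARB had the most similar courses (Pearson r = 0.92 over the 12 group means of log2(CPM + 1)), followed by CYP26A1 and RARG (r = 0.87) and ALDH1A2 and CYP26B1 (r = 0.84). The most opposed were ALDH1A3 and RARA (r = -0.81). These values share wells and scaling and are descriptions. Among 12084 other protein-coding genes with a group mean of at least 10 CPM, the closest courses were those of CDH23 for CYP26A1 (r = 0.98), PCYT2 for ALDH1A1 (r = 0.93), PDE1C for ALDH1A2 (r = 0.94) and PHF19 for DHRS3 (r = 0.94). For the receptors they were ANTXR2 for RARA, DDHD2 for RARB and STMN1 for RARG (r = 0.99, 0.99 and 0.98). The next closest were POTEC, A1CF, B4GALNT3, TESC, CRTC3, SLC40A1 and TNNT1, in the same order of genes, with r from 0.92 to 0.99.

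The rest of the pathway was described from 4 lists with 50 genes, of which 47 were tested. From day 0 to day 9, 24 rose and 3 fell (57.4%, against 31.7% of all genes), with a median log2 fold change of 1.28 against 0.08 over all genes. From day 9 to day 90, 8 rose and 7 fell (31.9%, against 23.9% of all genes), with a median of -0.04 against -0.02. Genes known to respond to retinoic acid made up most of the early change: 14 of 16 tested rose by day 9 and 0 fell. Among them, TBX5, a transcription factor of the heart's inflow end, went from 0.169 ± 0.0884 to 49.4 ± 15.4 CPM (log2 fold change 8.15, adjusted p = 1.3e-12). HOXB4 reached 11.3 ± 5.66 CPM (7.07, adjusted p = 2.9e-11) and HOXB2 10.4 ± 4.13 CPM (6.78, adjusted p = 3.8e-14), each from under 0.2 CPM (SD, n = 3 at day 0 and 5 at day 9). Many of these genes also mark heart, endoderm or hindbrain cells, and their part as cell markers was not tested.

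Of the same responsive genes, 2 rose and 3 fell from day 9 to day 90 (31.2%, against 23.9% of all genes). TGM2, a transglutaminase, rose from 154.5 ± 55.4 to 599 ± 257 CPM (log2 fold change 1.95, adjusted p = 8.5e-05). HOXB1 fell from 1.05 ± 0.806 to 0.208 ± 0.0728 CPM (-2.35, adjusted p = 0.029). CDX1, a posterior patterning gene, was at 0 in all 3 day 90 wells and at 0.357 ± 0.0794 CPM at day 9, at least 1.71-fold higher against a floor of 3 counts per well.

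Of the genes of retinol supply, 6 of 19 tested were higher and 1 was lower at day 9 than at day 0 (36.8%, near the 31.7% of all genes). BCO2, a carotenoid-cleaving enzyme, rose from 0.295 ± 0.143 to 19.7 ± 3.67 CPM (log2 fold change 6.05, adjusted p = 2e-13) and again to 86.8 ± 56.9 CPM at day 90 (2.14, adjusted p = 4.4e-07). RBP4, the retinol carrier secreted by hepatocytes, reached 42.3 ± 68.7 CPM at day 9 with wells from 1.14 to 163.8 CPM (8.02, adjusted p = 0.00059), where hepatic endoderm markers summed to 694 to 6861 CPM, and it fell to 0.123 ± 0.143 CPM at day 90 (-8.31, adjusted p = 0.0011). DHRS9, a retinol dehydrogenase, was at 0 in all 3 day 0 wells, was at least 3.80-fold higher at day 9 against the floor, and rose from 0.393 ± 0.188 to 5.04 ± 2.98 CPM at day 90 (3.67, adjusted p = 2.2e-05). RDH12 fell from 1.17 ± 0.120 to 0.261 ± 0.134 CPM by day 9 (-2.14, adjusted p = 0.0013). RPE65, a retinoid isomerase of the eye, was at 0 in 4 of 5 day 9 wells and read 0.0696 to 1.70 CPM at day 90 (adjusted p = 0.0002). From day 9 to day 90, 6 of the 19 rose and 3 fell (47.4%, against 23.9% of all genes).

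The 3 binding proteins of retinoic acid all changed by day 9, beside 31.7% of all genes. CRABP1 fell from 90.3 ± 11.4 to 5.98 ± 1.44 CPM (log2 fold change -3.92, adjusted p = 7.3e-10) and FABP5, which carries other lipids too, from 60.2 ± 3.11 to 11.1 ± 2.95 CPM (-2.44, adjusted p = 6.4e-10). CRABP2, which hands retinoic acid to receptors, rose from 72.1 ± 2.39 to 175 ± 18.2 CPM (1.28, adjusted p = 0.00012). None of the 3 passed from day 9 to day 90, where 23.9% of all genes did. Of 9 RXR partners and coregulators, 3 rose by day 9 and 0 fell (33.3%, near the 31.7% of all genes). RXRG went from 0.146 ± 0.0491 to 15.0 ± 2.73 CPM (6.63, adjusted p = 1.4e-12), RXRA from 44.5 ± 3.11 to 97.6 ± 11.6 CPM (1.13, adjusted p = 1.5e-05), and NRIP1, a corepressor, from 39.2 ± 2.74 to 116.7 ± 12.8 CPM (1.58, adjusted p = 7.1e-07). NRIP1 was the 1 gene of this list that fell from day 9 to day 90, to 47.7 ± 2.46 CPM (-1.29, adjusted p = 2.4e-05). No gene of the list rose over that span (11.1% changed, against 23.9% of all genes). In each case SD is over 3 wells at days 0 and 90 and over 5 wells at day 9.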

How the data were processed

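The authors deposited estimated counts per gene for the 44 libraries, of which 93.8% of values were whole numbers, and TPM per gene. The deposited library sheet gives an RNA integrity score (RIN, 7.4 to 10), a sequencing lane (5 lanes) and a batch number (1 for all). Per the labels' protocols, the libraries were stranded total RNA read as paired ends. The submitters' processing notes name cutadapt, STAR 2.5.2b, RSEM 1.2.31 and the build hg38; the annotation and the use of strand in counting are not given in the sources used here, so genes that overlap another gene are uncertain. Total RNA keeps non-coding transcripts, and protein-coding genes took 15.4% to 41.9% of TPM, so TPM compares genes within a well better than wells with each other.

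Symbols and coordinates (GRCh38, counted from 1) came from GENCODE 29, which held 56769 of 60499 identifiers. Each of the 44 columns carries the name of 1 labelled sample. Counts were rounded, and 22955 genes passed edgeR's filterByExpr (edgeR 4.0.16, R 4.3.3). After TMM scaling, the groups were compared in 13 contrasts of a single quasi-likelihood fit over the 44 libraries, with Benjamini-Hochberg adjustment over all 22955 genes; SE is the log2 fold change divided by the root of F. The self-test on simulated counts was run first. The series text gives 3 wells at day 11 and the labels 5; all 5 were used.

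The members and lists were chosen with earlier results of these data known. All 10 members are named; of the 4 pathway lists, up to 4 changed genes per list with the largest change, in day 9 against day 0 and in day 90 against day 9, except 1 gene of the list of responsive genes that is not reported here; and for members reaching 10 CPM, the 2 protein-coding genes with the highest correlation of group means. Promoter sequences are from RefSeq (GRCh38.p14). Alternatives were RLE scaling, no filter or a filter of 1 CPM in 3 libraries, DESeq2 1.42.0, a fit of the compared groups alone, the replicate number as a block, the lane as a factor, limma 3.58.1 on log2(TPM + 1) and log2(TPM + 0.1), each well left out in turn and, chosen after seeing the data, day 11 wells 1 and 2 left out together. The main fit did not pair wells by number, as no label ties a number to a shared batch. In no comparison with 3 or more shared numbers did every pair of same-numbered wells deviate together with a correlation over 0.1. Still, 4 of 5 day 9 wells correlated best with their own number at day 7 (mean correlation 0.218). From day 14 to day 20, 2 of 2 did so (0.553 and 0.611), and from day 9 to day 90, 2 of 2 (0.0965 and 0.155). From day 20 to day 30, 0 of 2 did. Pairing at the later days was therefore not settled.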

Additional observations from a re-analysis of the deposited data

Results flagged for a closer look

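In the 4 groups of 5 wells, each of the 10 genes was checked for a well that lay apart from the others by more than 0.71 of the range of its group, 40 checks in all. For normally distributed values chance gives about 1 in 20 such groups, and 7 were found. Low CPM need not follow that distribution and the 10 genes share wells, so the 7 cannot be set against this rate. ALDH1A1 at day 5 was 8.35 CPM in well 3 and 0.391 to 1.52 CPM in the other wells. RARG at day 5 was lowest in the same well, 23.0 CPM against 35.0 to 39.5 CPM. CYP26A1 at day 7 was 6.47 CPM in well 10 and 0.557 to 1.36 CPM in the other wells. CYP26C1 stood apart in a different well at each of 3 days. It was 2.53 CPM in day 5 well 5 against 0.130 to 0.214 CPM, 6.10 CPM in day 7 well 10 against 0.0786 to 0.209 CPM, and 3.77 CPM in day 9 well 4 against 0.114 to 0.813 CPM. CYP26B1 at day 9 was 0.747 CPM in well 3 and 0.257 to 0.390 CPM in the other wells, which is a difference of few counts.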

How the results depend on the processing

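Of the 27 changes among the 10 genes over the 13 comparisons, 18 held under all 9 other settings, 22 held whichever single well was left out, and 18 held under all of these. The sign changed for 1 value, the log2 fold change of ALDH1A1 from day 11 to day 14, which did not pass with all wells (0.97). It was -0.057 with the replicate block and -0.062 to 1.43 with single wells left out, the lowest without day 14 well 6 and the highest without day 11 well 2. The counts of changed genes among the 10 were within 1.5 times of those reported except as follows. For the step from pluripotent to day 0, DESeq2 gave 1 and the fit of the compared groups alone gave 2 in place of 0. That fit also gave 5 in place of 3 for the day 0 to 1 step, 1 in place of 0 for the day 7 to 9 step, 0 in place of 1 for the day 20 to 30 step and 0 in place of 1 for the day 30 to 90 step. limma on log2(TPM + 1) gave 3 in place of 5 for the day 3 to 5 step, 2 in place of 1 for the day 5 to 7 step, and 0 in place of 1 for the day 20 to 30 step, and limma on log2(TPM + 0.1) gave 3 for the day 5 to 7 step. DESeq2 gave 3 in place of 1 for the day 30 to 90 step. Among the other pathway genes, limma on log2(TPM + 1) gave 14 in place of 27 for the day 0 to 9 step and 7 in place of 15 for the day 9 to 90 step; a pseudocount of 1 shrinks the changes of low genes. Without day 11 wells 1 and 2 together, an alternative chosen after seeing the data, 1 gene in place of 0 changed for both the day 9 to 11 step and the day 11 to 14 step. The causes of the other shifts were not tested.

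With single wells left out, the count was 0 for the step from pluripotent to day 0, 2 for the day 0 to 1 step, 4 to 5 for the day 1 to 3 step, 4 to 6 for the day 3 to 5 step, 1 to 3 for the day 5 to 7 step, 0 to 1 for the day 7 to 9 step, 0 for days 11 and 14, 0 to 1 for the day 14 to 20 step, 0 to 1 for the day 20 to 30 step, 1 to 3 for the day 30 to 90 step, 6 for the day 0 to 9 step and 4 to 5 for the day 9 to 90 step. For the other pathway genes it was 25 to 27 and 13 to 15.

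With the well number as a replicate block, the count was 2 in place of 1 for the day 5 to 7 step. It was 4 in place of 1 for the day 30 to 90 step, whose wells share no number. Every well correlated best with its own number in 0 of the comparisons with 3 or more shared numbers. With 2 shared numbers, every shared well did so for day 14 to 20 and for day 9 to 90.

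For the comparisons with 0 changed genes by edgeR's quasi-likelihood test, the number with an unadjusted p under 0.05 was 1 for the step from pluripotent to day 0, 2 for the day 7 to 9 step, 2 for the day 9 to 11 step, 0 for the day 11 to 14 step and 1 for the day 14 to 20 step, and DESeq2 called 1, 0, 0, 0 and 0. Depth limits CYP26C1 and CYP26B1 most, with fewer than 10 counts in many wells.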
